A study of Mus musculus with 48 samples.

Results

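The hippocampus of stressed mice was compared with that of non-stressed mice among animals that had received vehicle. The comparison used 12 of the 48 libraries of the study, 6 from each group, chosen by their labels alone. All were male C57BL/6 mice, an inbred strain, aged 63 to 91 postnatal days. One group had been kept in a stress environment and the other in a control environment, in sessions on 3 days, and each session was followed after 60 minutes by an injection of vehicle into the abdominal cavity. The hippocampus was collected 12 hours after the final dose of vehicle, so both groups had been handled and injected. The kind of stress is not named in the labels. The remaining libraries came from frontal cortex or from mice given esomeprazole, a proton pump inhibitor, and are used here only to set values beside those of vehicle hippocampus.

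Stress makes the adrenal glands secrete glucocorticoids, which in mice means mainly corticosterone. In the hippocampus the hormone binds the glucocorticoid receptor and the mineralocorticoid receptor, which enter the nucleus and act on target genes, in part through DNA elements built of the hexamer AGAACA and its reverse complement TGTTCT. Targets such as Fkbp5, Sgk1 and Tsc22d3 are used as readouts of receptor activity, while immediate early genes such as Fos report recent neuronal activity.

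Each library held 25316174 to 37227569 reads assigned to genes, and 14927 genes were tested. Hippocampal identity was checked with Prox1, the transcription factor gene of dentate granule neurons. It lay between 21.9 and 82.0 CPM (read counts scaled to library size) in the 12 libraries. In the 12 frontal cortex libraries of vehicle mice it lay between 1.80 and 7.81. The markers C1ql2, Fibcd1 and Lct also had ranges that did not overlap between tissues, and Dsp had no cortex value. The pyramidal markers Wfs1 (91.0 to 310 CPM against 82.7 to 192 in cortex) and Cpne4 (39.0 to 159 against 42.7 to 272) overlapped. Stressed library 2 stood apart through markers of neighbouring regions, most of them markers of striatal neurons. Its score on the striatal list, the mean log2 deviation of the members from their mean over the 12 libraries, was 2.69, against -0.59 to 0.47 in the other stressed libraries and -0.60 to 0.28 in the non-stressed ones. Over the 3 tested hypothalamic markers its score was 4.26, against -1.39 to 1.12 in the other stressed libraries, and over the 3 tested markers of cholinergic basal forebrain neurons it was 2.71, against -0.59 to 0.61. Non-stressed libraries 1 and 3 and stressed library 3 had 8.78%, 5.36% and 5.03% of their reads assigned to no feature, against 14.1% to 20.2% in the others, and lay apart from them on the first principal component, which held 79.5% of the variance. Neither this share (mean difference 1.42 points, stressed minus non-stressed) nor the number of gene reads differed between groups beyond the spread between libraries (two-sided exact permutation tests, p = 0.723 and p = 0.444). Some of the gene lists and most named genes are also given without stressed library 2 or without all 4 of these libraries. The labels give 6 mice a group but not whether each library is 1 mouse, so p-values measure the spread between these libraries.

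No single gene passed the test after adjustment over all genes. Limma called 0 of 14927 genes at an adjusted p under 0.05 (0% of genes), the smallest adjusted p being 0.9999, and edgeR and DESeq2 also called 0. At an unadjusted p under 0.05 limma found 62 genes lower and 41 higher after stress, which is 0.415% and 0.275% of the genes tested. Together they were 0.690% of the genes, fewer than a threshold of 0.05 would pass by chance. Shares of all genes given below are therefore those found in these libraries, not chance rates. Every gene value below is therefore a difference that did not pass adjustment, and its p is unadjusted. Genes that respond to glucocorticoids were the list with most members among the 62.

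Of the 42 glucocorticoid response genes, all of which were tested, 35 were lower in stressed mice, where 46.9% of all genes were lower. The median log2 difference of the list was -0.32, against 0.02 over all genes. At the single-gene level, 10 of the 42 (23.8%) were lower at an unadjusted p under 0.05, against 0.415% of all genes, and 0 were higher. The list score was lower than the non-stressed mean in 6 of 6 stressed libraries and lower than every non-stressed library in 5 of 6. It ran from 0.02 to 0.35 without stress and from -0.35 to 0.15 with it, so the groups overlapped through 1 stressed library. The list holds genes known to have been lower in an earlier analysis of the same libraries, and its direction is not independent evidence. In bulk tissue, fewer cells of a type and less RNA per cell cannot be told apart.

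The receptor genes lay on both sides of 0. Nr3c1, the glucocorticoid receptor gene (chromosome 18, 39410545 to 39519421, minus strand of mm10, as for all positions below), had 341, 2141 and 2757 normalised reads (lowest, median and highest) without stress and 667, 2658 and 3241 with it, a log2 difference of 0.39 ± 0.55 (SE, limma unadjusted p = 0.489). The groups overlapped widely, and the lowest library of each was library 3, one of those with a low no-feature share. Nr3c2, the mineralocorticoid receptor gene (chromosome 8, 76899442 to 77245012, plus strand), had 1400.0, 3907 and 4168 normalised reads without stress and 1460.4, 3986 and 5525 with it, at -0.018 ± 0.37 (SE, limma unadjusted p = 0.961). Hsd11b1, which encodes the enzyme that regenerates corticosterone inside cells and was chosen after its values were seen, was at -0.088 ± 0.17 (SE, limma unadjusted p = 0.605). Of the 11 receptor, chaperone and cofactor genes listed with them, 0 reached an unadjusted p under 0.05, and their median was -0.018. Without stressed library 2 and the 3 of low no-feature share, Nr3c1 was at 0.27 ± 0.093 (SE, limma unadjusted p = 0.0151). In that fit 2 of the 11 were higher at an unadjusted p under 0.05, against 5.13% of all genes, and 0 were lower.

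Fkbp5 encodes a co-chaperone that lowers the hormone affinity of the glucocorticoid receptor and is itself induced by it (chromosome 17, 28399094 to 28517527, minus strand). It had 2578, 3268 and 3970.4 normalised reads without stress and 2024, 2462 and 2688 with it. Most stressed libraries lay below every non-stressed one, and only non-stressed library 4, at 2578, and stressed library 6, at 2688, crossed. The log2 difference was -0.44 ± 0.13 (SE, limma unadjusted p = 0.00552), and -0.39 without stressed library 2.

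Sgk1, the serum- and glucocorticoid-regulated kinase (chromosome 10, 21882184 to 21999903, plus strand), had 2379, 3503 and 4792 normalised reads without stress and 2341, 2613 and 2912 with it. The stressed libraries lay close together and overlapped the non-stressed range through non-stressed library 4. Its log2 difference was -0.42 ± 0.16 (SE, limma unadjusted p = 0.0206). Map3k6, a kinase of the stress-activated MAP kinase pathways (chromosome 4, 133240818 to 133252929, plus strand), had 121, 209 and 338 normalised reads without stress and 95.3, 117 and 165 with it, at -0.83 ± 0.26 (SE, limma unadjusted p = 0.00722). Non-stressed library 1, a library of low no-feature share, was the one non-stressed library inside the stressed range.

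Tsc22d3, the glucocorticoid-induced leucine zipper, an anti-inflammatory regulator (chromosome X, 140539528 to 140600659, minus strand), had 2048, 2801 and 3383 normalised reads without stress and 1633, 1921 and 3072 with it. The highest stressed value was that of library 2, the one with striatal markers, and without it the log2 difference moved from -0.41 ± 0.19 (SE, limma unadjusted p = 0.0486) to -0.51. Hif3a, a hypoxia-inducible factor subunit (chromosome 7, 17031507 to 17062427, minus strand), had 132, 464 and 969 normalised reads without stress and 87.7, 220.2 and 388 with it, at -1.14 ± 0.49 (SE, limma unadjusted p = 0.0384). Its 2 highest non-stressed libraries held about as much as each other, at 969 and 964, and non-stressed libraries 1, 3 and 4 lay in the stressed range. Per1, a clock repressor that glucocorticoids also induce, was at -0.19 ± 0.23 (SE, limma unadjusted p = 0.429), with library 3 the highest of both groups.

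Plin4, whose product covers the surface of fat droplets (chromosome 17, 56100591 to 56109803, minus strand), showed the largest difference of the list. Its normalised reads were 164, 744 and 1289.7 without stress and 125, 168 and 329 with it. Of the 6 non-stressed libraries 5 lay above all stressed ones, the exception being library 1 at 164. The log2 difference was -1.75 ± 0.47 (SE, limma unadjusted p = 0.00261), -1.90 without stressed library 2 and -2.14 without that library and the 3 of low no-feature share.

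**Figure D1:**
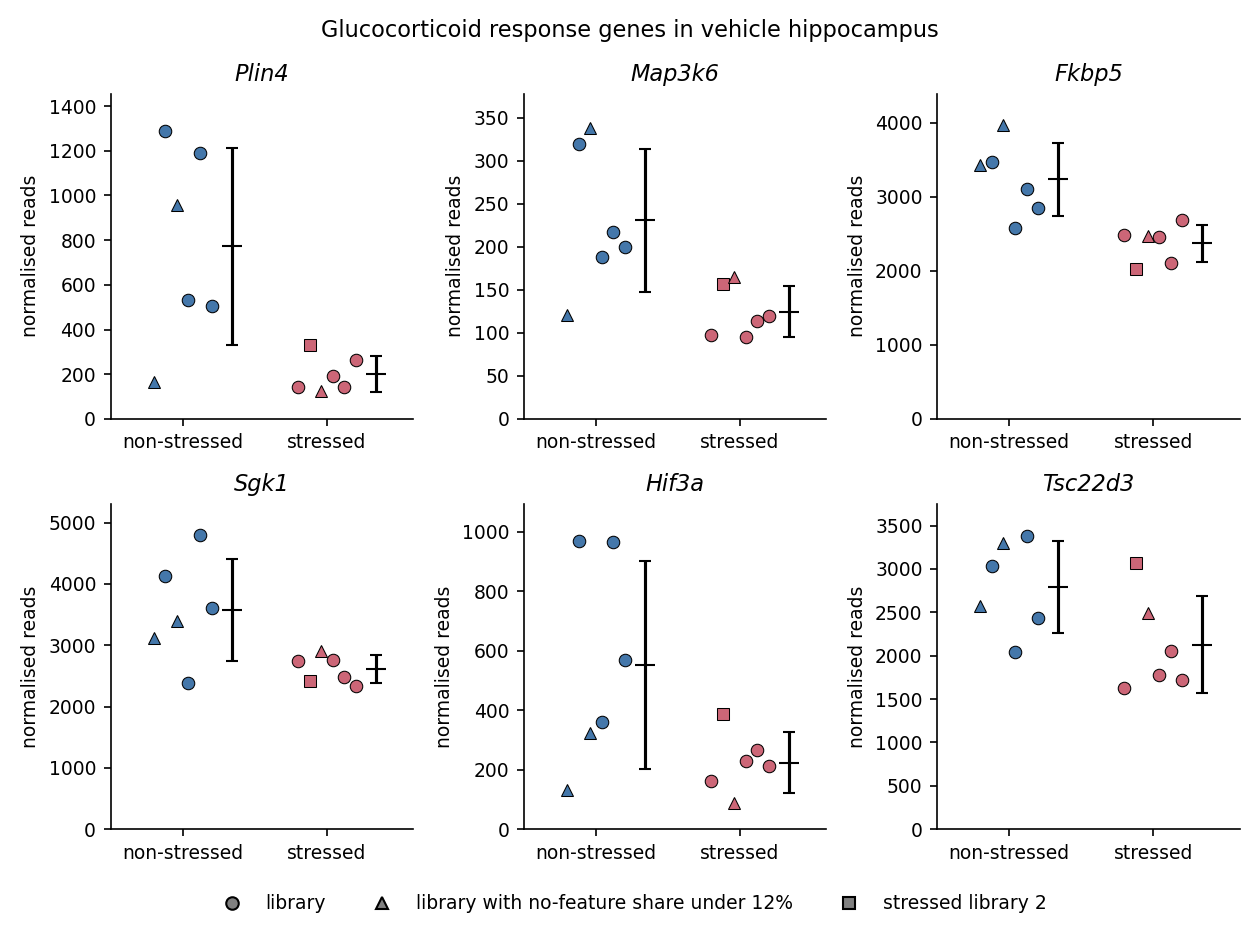
Normalised reads per library (vertical axis, from 0) of 6 glucocorticoid response genes in non-stressed (blue) and stressed (red) vehicle mice, with mean and SD beside each group; triangles are the 3 libraries of low no-feature share and squares stressed library 2. Stressed libraries are mostly lower, and for each gene at least 1 non-stressed library lies in the stressed range.

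The other members at an unadjusted p under 0.05 were enzymes and surface or cytoskeletal proteins. Xdh, xanthine dehydrogenase of purine breakdown, had 179, 429.9 and 595 normalised reads without stress and 193, 239 and 281 with it, at -0.69 ± 0.27 (SE, limma unadjusted p = 0.027). Galnt15, a glycosyltransferase that starts O-linked sugar chains, was at -0.53 ± 0.20 (SE, limma unadjusted p = 0.0219), with 47.00, 67.5 and 92.6 and 38.2, 44.1 and 60.2 normalised reads. The groups overlapped in both genes, in Xdh through the low value of non-stressed library 1 and in Galnt15 through non-stressed libraries 1 and 6. Sdc4, a heparan sulphate proteoglycan of the cell surface, was at -0.43 ± 0.17 (SE, limma unadjusted p = 0.0294). Wipf3, an actin regulator, was at -0.45 ± 0.20 (SE, limma unadjusted p = 0.0414) but at -0.29 without stressed library 2, and was chosen after its values were seen.

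Among the 32 members that did not reach that threshold, log2 differences ran from -1.34 for the iron-binding lipocalin gene Lcn2 to 0.41 for the arrestin domain gene Arrdc3. Among widely used targets, the Krüppel-like factor gene Klf9 was at -0.078 ± 0.43 (SE) and the MAP kinase phosphatase gene Dusp1 at 0.12 ± 0.36. The metallothionein genes Mt1 and Mt2 were at -0.24 and -0.32 with standard errors of 0.50 and 0.40. All of these were chosen after their values were seen, as was Pdk4 below.

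The list kept its direction without the libraries that stood apart. Without stressed library 2 the median was -0.26, with 33 of 42 members lower and 9 of them at an unadjusted p under 0.05 (0.315% of all genes). Without the 3 libraries of low no-feature share it was -0.34, with 38 lower and 16 at that threshold (1.9% of all genes lower and 1.26% higher). Without all 4, with 4 libraries left in each group, it was -0.30, and 24 of the 41 members with a value were lower at that threshold, or 58.5% against 6.95% of all genes. Map3k6 was then at -1.09, Hif3a at -1.63, Xdh at -0.86, Galnt15 at -0.76, Tsc22d3 at -0.58, Sgk1 at -0.49 and Sdc4 at -0.48, each at least as far from 0 as with 12 libraries. Fkbp5, at -0.30, and Wipf3, at -0.18, were nearer to 0. A single member, the pyruvate dehydrogenase kinase gene Pdk4, was then higher at it, at 0.27. When limma weighted each library by its fit, the 3 libraries of low share and stressed library 2 had weights of 0.04 to 0.19 against 1.34 to 9.83 for the others, and 122 genes were called at an adjusted p under 0.05 (0.817% of genes), 71 lower (0.476%) and 51 higher. Among those 122 were 6 glucocorticoid response genes (14.3% of the 42), all lower: Plin4, Map3k6, Xdh, Sdc4, Hif3a and Mfsd2a, the lysophospholipid transporter gene of the blood-brain barrier.

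**Figure D2:**
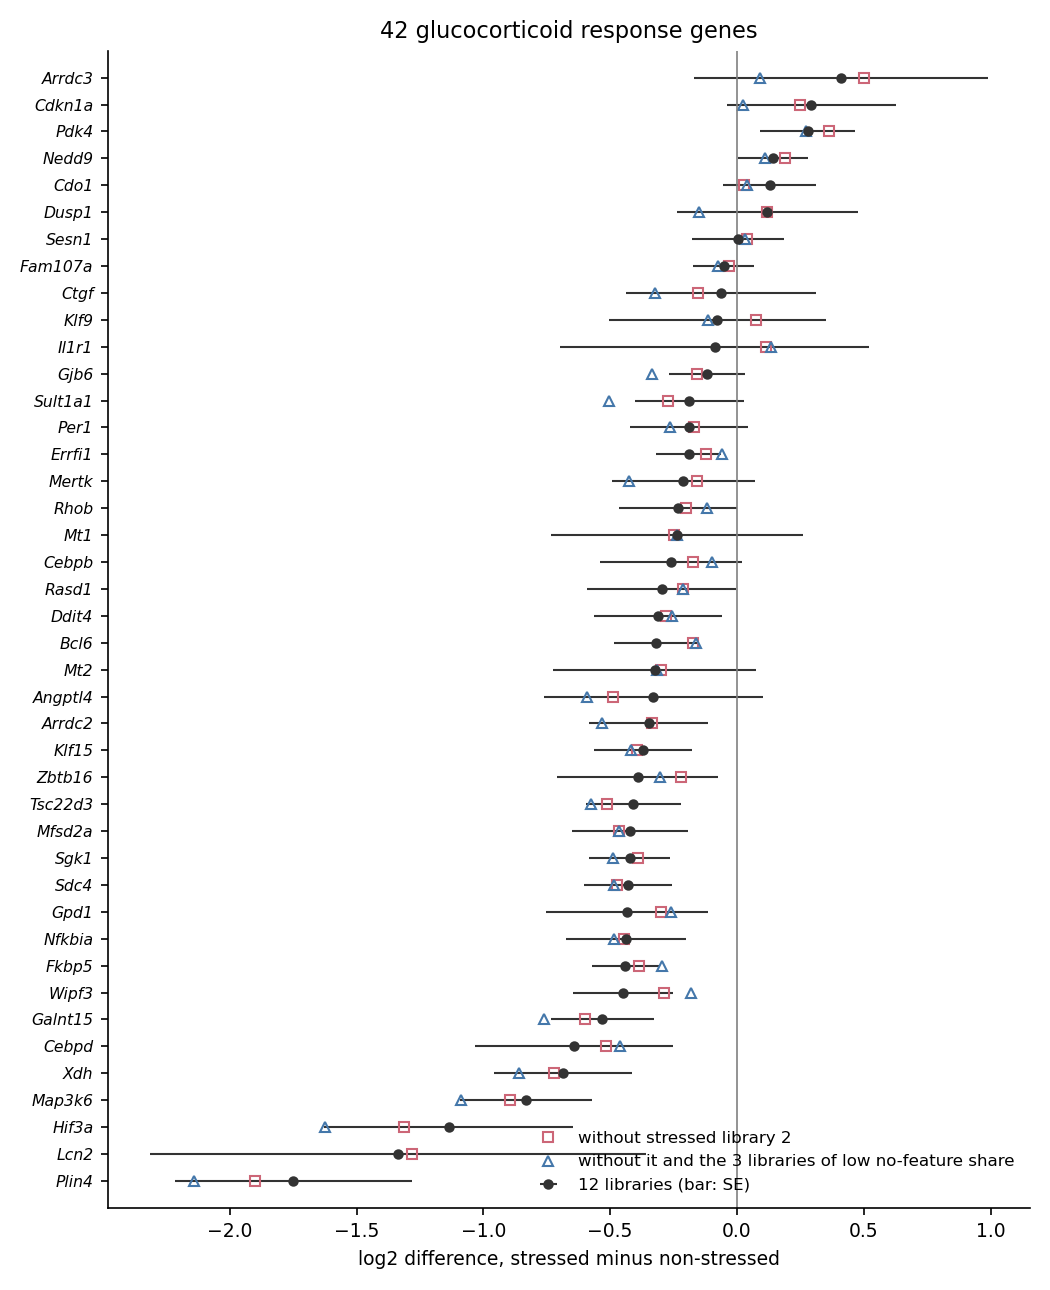
Log2 difference, stressed minus non-stressed (horizontal axis), of the 42 glucocorticoid response genes in 12 libraries (black, bar SE), without stressed library 2 (red squares) and without that library and the 3 of low no-feature share (blue triangles). With 12 libraries 35 genes lie below 0 and 10 of them reach an unadjusted p under 0.05.

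Promoter sequences were read for the list because most of its members lay on the same side. Windows from 250 bases before to 50 after a start (RefSeq, GRCm38.p6) were found for 34 of the 42 genes, 51 windows in all. The hexamer AGAACA, on either strand, was in 17.6% of them, against 12.6% of the 14361 windows of all genes tested and 18.97% of all 32851 windows of the table. Sgk1 alone held 3 of the 9 windows with it, and counted by gene the share was 17.6% against 14.9% of the genes tested. The full element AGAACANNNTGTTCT, which contains the hexamer on both strands, was in 1 window of the 14361, that of 1 of the 6 starts of Sgk1. The window of Plin4, the gene of largest difference in the list, holds 0 hexamers, and 1 of the 3 Tsc22d3 windows holds 1. A match is a description of letters, not of a site in use, and a window without one says nothing of elements farther away. The 3 windows below set the full element beside a single hexamer and none, with hexamers in capitals, each 5′ to 3′ on the gene's strand.
Sgk1, chr10:21993640-21993939 (+ strand): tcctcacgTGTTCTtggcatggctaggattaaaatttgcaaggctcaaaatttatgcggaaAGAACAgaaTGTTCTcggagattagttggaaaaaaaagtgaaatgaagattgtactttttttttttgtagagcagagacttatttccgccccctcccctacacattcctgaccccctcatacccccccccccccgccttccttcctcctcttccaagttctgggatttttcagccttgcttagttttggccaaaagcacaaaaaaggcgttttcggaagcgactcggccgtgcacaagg
Tsc22d3, chrX:140600473-140600772 (- strand): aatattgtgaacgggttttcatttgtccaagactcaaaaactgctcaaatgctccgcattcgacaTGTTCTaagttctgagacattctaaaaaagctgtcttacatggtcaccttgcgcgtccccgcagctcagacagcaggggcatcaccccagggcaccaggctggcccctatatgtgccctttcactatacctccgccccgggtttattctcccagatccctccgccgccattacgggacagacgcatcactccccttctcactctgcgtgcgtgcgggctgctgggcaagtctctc
Plin4, chr17:56109733-56110032 (- strand): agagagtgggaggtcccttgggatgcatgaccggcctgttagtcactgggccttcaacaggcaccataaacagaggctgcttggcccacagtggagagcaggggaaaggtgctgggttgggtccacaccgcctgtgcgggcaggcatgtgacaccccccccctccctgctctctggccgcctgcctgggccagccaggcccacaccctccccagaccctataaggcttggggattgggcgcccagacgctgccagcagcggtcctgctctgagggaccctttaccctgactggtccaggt

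Immediate early genes lay on both sides of 0. Of 25 listed, 13 were lower (52%, against 46.9% of all genes) and the median was -0.0068. At an unadjusted p under 0.05, 0 were lower and 1 was higher (4%, against 0.275% of all genes). That one was Egr2, a zinc finger transcription factor gene (chromosome 10, 67535475 to 67542188, plus strand), with 18.7, 22.99 and 34.2 normalised reads without stress and 28.9, 46.2 and 244 with it. Of the 6 stressed libraries 5 exceeded every non-stressed one, and stressed library 3 was highest. The log2 difference was 1.34 ± 0.47 (SE, limma unadjusted p = 0.0145). Fos (chromosome 12, 85473890 to 85477273, plus strand) had 109.8, 162 and 203 normalised reads without stress and 128, 267 and 1206 with it, at 0.95 ± 0.45 (SE, limma unadjusted p = 0.0553). Its highest value was also that of stressed library 3, of low no-feature share. Without the 3 such libraries and stressed library 2, Fos was at 0.45 and Egr2 at 1.04. Jun, the partner of Fos in the AP-1 factor, lay the other way at -0.38 ± 0.21 (SE, limma unadjusted p = 0.0963).

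Genes of cholesterol synthesis had a small median difference. Of 22 tested, 7 were lower and 15 higher, 2 of them at an unadjusted p under 0.05 (9.09%, against 0.275% of all genes), with a median of 0.062. Msmo1, a sterol demethylation enzyme (chromosome 8, 64718139 to 64733792, minus strand), had 2187, 2317 and 2618 normalised reads without stress and 2604, 2848 and 3093 with it, at 0.27 ± 0.098 (SE, limma unadjusted p = 0.016). Only stressed library 2, at 2604, fell under the highest non-stressed library, at 2618. Cyp51, the lanosterol demethylase (chromosome 5, 4081145 to 4104746, minus strand), had 1667, 1930.3 and 2021 and 2053, 2212 and 2356 normalised reads, at 0.23 ± 0.097 (SE, limma unadjusted p = 0.0359). In Cyp51 every stressed library lay above every non-stressed one. The same held for 2 of the 22 in all (9.09%), against 9 of all genes tested (0.0603%). Without stressed library 2 and the 3 of low no-feature share 9 of the 22 were higher at an unadjusted p under 0.05, against 5.13% of all genes, and the median was 0.14. Without stressed library 2 alone 10 of the 22 were lower and 1 was higher at that threshold (0.281% of all genes), with Cyp51 at an unadjusted limma p of 0.0586. In esomeprazole mice 10 of 22 were lower after stress and in frontal cortex 15 of 22, with 0 at that threshold in either direction in both and medians of 0.066 and -0.11.

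Lyve1, which encodes a receptor for hyaluronan found on macrophages along vessels and on lymphatic vessels (chromosome 7, 110850607 to 110863239, minus strand), was lower in every stressed library than in any non-stressed one, as in 8 of all genes tested (0.0536%). It had 26.7, 37.98 and 55.8 normalised reads without stress and 5.66, 18.6 and 20.6 with it, at -1.28 ± 0.33 (SE, limma unadjusted p = 0.00195), and -1.33 without stressed library 2. The 7 tested of 10 listed markers of border macrophages, the macrophages of vessel walls and meninges, were all lower, with a median of -0.40. With 12 libraries Lyve1 alone reached an unadjusted p under 0.05 (14.3% of the 7, against 0.415% of all genes lower). Cd163, a haemoglobin scavenger receptor gene, was at -0.50 ± 0.35 (SE, limma unadjusted p = 0.175) and F13a1, a coagulation factor subunit gene, at -0.33 ± 0.26 (SE, limma unadjusted p = 0.216). In both, non-stressed library 1 held the fewest reads of all 12 libraries. Without stressed library 2 and the 3 of low no-feature share, Cd163 was at -0.78 and F13a1 at -0.46. In that fit 3 of the 7 were lower at an unadjusted p under 0.05, against 6.95% of all genes, and the median was -0.46. After stress 7 of 7 were lower in esomeprazole mice, with a median of -0.36, but 1 of 7 in frontal cortex, with a median of 0.29. Microglia, the macrophages of the brain parenchyma, had a median of -0.084 over 15 markers.

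Apart from Egr2 and Msmo1, the named genes on the higher side included Sh3rf2, a scaffold protein with ubiquitin ligase activity (chromosome 18, 42053667 to 42158960, plus strand). It passed the filter on low counts only through the stressed group, so that its groups had to differ, and its average of 1.04 CPM, which let the naming rule take it, was 0.40 without stressed library 2. It had 0.90, 4.52 and 9.78 normalised reads without stress and 14.6, 22.8 and 243 with it. Stressed library 2 exceeded all others by far. Its log2 difference was 2.79 ± 0.68 (SE, limma unadjusted p = 0.00131), and 2.23 without that library. Casq2, a calcium-binding protein of the sarcoplasmic reticulum, was at 0.68 ± 0.21 (SE, limma unadjusted p = 0.00628), with 44.6, 68.9 and 86.1 normalised reads without stress and 82.1, 100.2 and 139 with it. Igfn1, which encodes an immunoglobulin and fibronectin domain protein, was at 1.38 ± 0.46 (SE, limma unadjusted p = 0.0106) and ranged widely, from 184 to 645 normalised reads in stressed libraries. Rgs20, a regulator of G protein signalling, was at 0.32 ± 0.11 (SE, limma unadjusted p = 0.0168). C130074G19Rik, Zbed5, Atp6ap1l and Gm11696 were at 0.76, 0.49, 1.02 and 0.39, with limma unadjusted p from 0.00869 to 0.0215. Without all 4 libraries that stood apart, Casq2 was at 0.50, Igfn1 at 1.36, Rgs20 at 0.30, C130074G19Rik at 0.63, Zbed5 at 0.38 and Gm11696 at 0.29, and Atp6ap1l moved from 1.02 to 0.58.

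The lower genes of smallest p, beside Plin4, Fkbp5 and Map3k6, are given one by one. Rnf165, a ubiquitin ligase (chromosome 18, 77456110 to 77565161, minus strand), had 3175, 3402 and 3707 normalised reads without stress and 1844, 2654 and 2930.5 with it, at -0.43 ± 0.13 (SE, limma unadjusted p = 0.00508). The groups did not overlap, and stressed library 2 was lowest. Tspan18, a tetraspanin membrane protein, had 1584, 1683 and 1964 and 743, 1280.4 and 1577 normalised reads, also without overlap, at -0.57 ± 0.18 (SE, limma unadjusted p = 0.00767). Atp2c2, a calcium and manganese pump of the secretory pathway, was at -0.82 ± 0.27 (SE, limma unadjusted p = 0.00972), with non-stressed library 3 far above the rest at 275 normalised reads. Htr5b, a serotonin receptor gene, was at -0.90 ± 0.31 (SE, limma unadjusted p = 0.0139), Ksr1, a scaffold of the ERK kinase pathway, at -0.53, Nkd2, an inhibitor of Wnt signalling, at -0.52 and Pirt, a regulator of TRP channels, at -0.85. Lao1, an L-amino acid oxidase gene, was at -1.15 ± 0.43 (SE, limma unadjusted p = 0.0184) with 8.88, 22.1 and 48.4 and 3.77, 8.96 and 20.2 normalised reads. Without all 4 libraries that stood apart these genes were still lower, Rnf165 at -0.28, Tspan18 at -0.42, Atp2c2 at -0.75, Htr5b at -0.66, Ksr1 at -0.32, Nkd2 at -0.47, Pirt at -0.66 and Lao1 at -1.31.

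**Figure D3:**
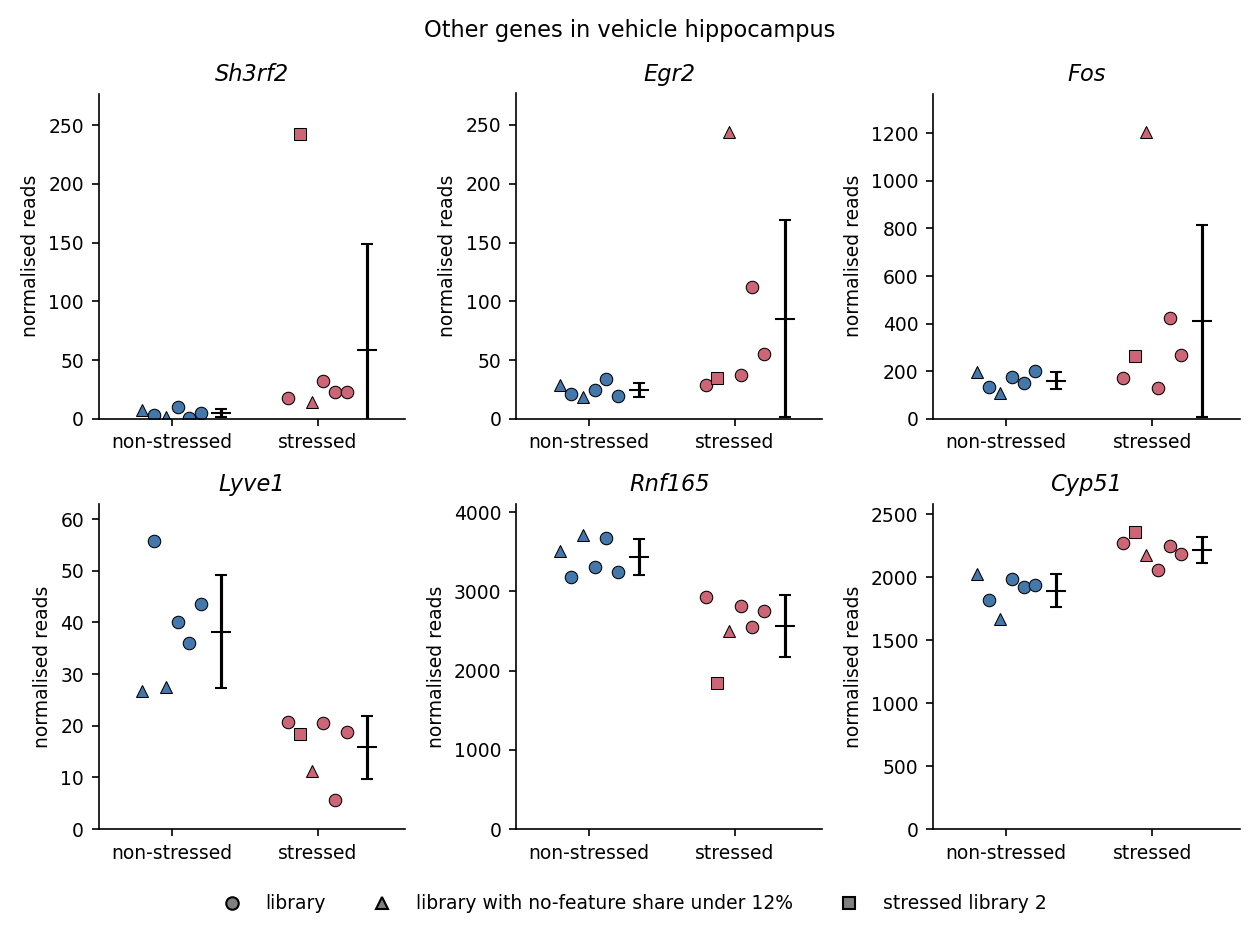
Normalised reads per library (vertical axis, from 0) of 6 other genes, drawn as for the glucocorticoid response genes; SD bars that would pass below 0 end there. Lyve1, Rnf165 and Cyp51 do not overlap between groups, while the highest Egr2 and Fos values come from 1 stressed library of low no-feature share.

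Markers of some neuron classes stood apart in stressed library 2. Of 14 striatal markers 13 were higher, with a median of 0.61, which was 0.11 without that library, and 0 reached an unadjusted p under 0.05. The dopamine receptor gene Drd1 had 1232 normalised reads there, against 95.6 to 277 in the other stressed libraries, and Drd2 had 849.5, against 41.8 to 315. Markers of CA1 pyramidal neurons, the output neurons of the hippocampus, were lower in 7 of 9 cases, with a median of -0.38, and -0.27 without that library. Their score was -0.78 in stressed library 2 and -0.16 to 0.15 in the other stressed libraries, against -0.021 to 0.27 without stress. Fibcd1, a membrane receptor gene of CA1, was at -0.75 ± 0.44 (SE, limma unadjusted p = 0.112) and Pou3f1, a transcription factor gene, at -0.52 ± 0.31 (SE, limma unadjusted p = 0.114). Dentate granule markers had a median of -0.14, and -0.0061 without that library. The part of these marker differences in the gene values above was not tested beyond the values without that library and the fits, given below, with the striatal score as covariate.

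**Figure D4:**
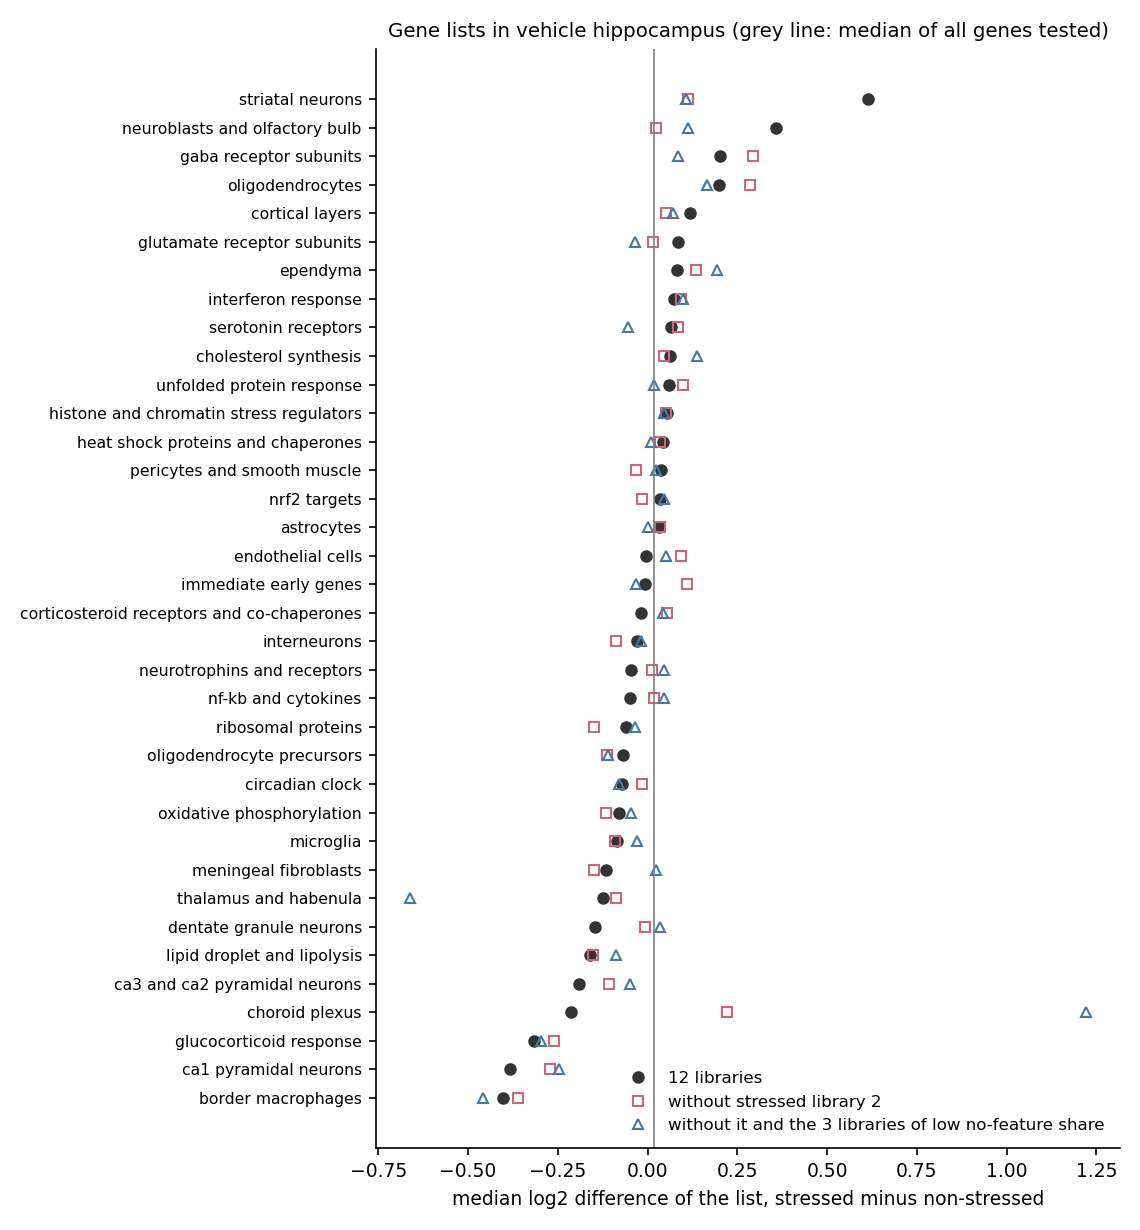
Median log2 difference, stressed minus non-stressed (horizontal axis), of each list with at least 5 genes tested, in 12 libraries (black), without stressed library 2 (red squares) and without that library and the 3 of low no-feature share (blue triangles). The striatal median drops from 0.61 to 0.11 without stressed library 2, while the glucocorticoid response median stays between -0.32 and -0.26.

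The stress comparison in esomeprazole mice shares no library with that in vehicle mice. Among the 61 of the 62 lower genes with a value there, 60 were also lower, where 59.9% of all genes were lower, and among the 41 higher genes 39 were higher, where 40.1% of all genes were. At an unadjusted p under 0.05 in the same direction were 28 of the lower (45.9%, against 1.65% of all genes) and 9 of the higher (22.0%, against 2.47%). Among the 6 stressed esomeprazole libraries 4 also had high striatal scores. Without those 4, 2 stressed libraries were left, 1 of them with a no-feature share of 11.5%, and 1 of the 6 non-stressed esomeprazole libraries had a share of 6.12%. In that comparison 36 of 62 lower genes were lower (58.1%, against 54.0% of all genes), 8 of them at an unadjusted p under 0.05 (12.9%, against 0.335%), and 17 of 41 higher genes were higher (41.5%, against 46.0%), 0 of them at that threshold (0.0804% of all genes). Of genes chosen without stressed library 2, 40 of 46 lower ones were lower with all esomeprazole libraries (87.0%) and 37 of 42 higher ones higher (88.1%). Without the 4 striatal-high ones 26 of 47 were lower (55.3%) and 24 of 42 higher (57.1%). Of the 1036 genes lower in vehicle mice without the 4 libraries that stood apart, 840 of 1034 were lower with all esomeprazole libraries (81.2%) and 365 of 1036 without the 4 striatal-high ones (35.2%). The glucocorticoid response list stood at a median of -0.51 in esomeprazole mice, with 38 of 42 lower and 18 at an unadjusted p under 0.05. Without the 4 it stood at -0.32, with 38 of 42 lower and 5 at that threshold. As the list was chosen with earlier results of these data known, its direction in esomeprazole mice is not independent evidence either. All 10 members at an unadjusted p under 0.05 in vehicle mice had log2 differences below 0 in both, but without the 4 Fkbp5 moved from -0.64 to -0.083 (limma unadjusted p = 0.636) and Wipf3 from -0.99 to -0.18 (limma unadjusted p = 0.451). Plin4 had 408, 965 and 1810.3 normalised reads without stress and 174, 231 and 491 with it in esomeprazole mice, a log2 difference of -1.96 ± 0.36 (SE), and of -2.005 ± 0.55 without the 4. Sh3rf2 was at 4.00 there but at -0.32 without the 4 libraries, and Lyve1 at -1.25 and -1.41. In the same order Fos was at 1.00 and 0.73, Egr2 at 1.35 and 0.55, and Jun at -0.68 and 0.10. The difference between both stress effects was called for 0 of 15062 genes by limma (57 at an unadjusted p under 0.05).

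**Figure D5:**
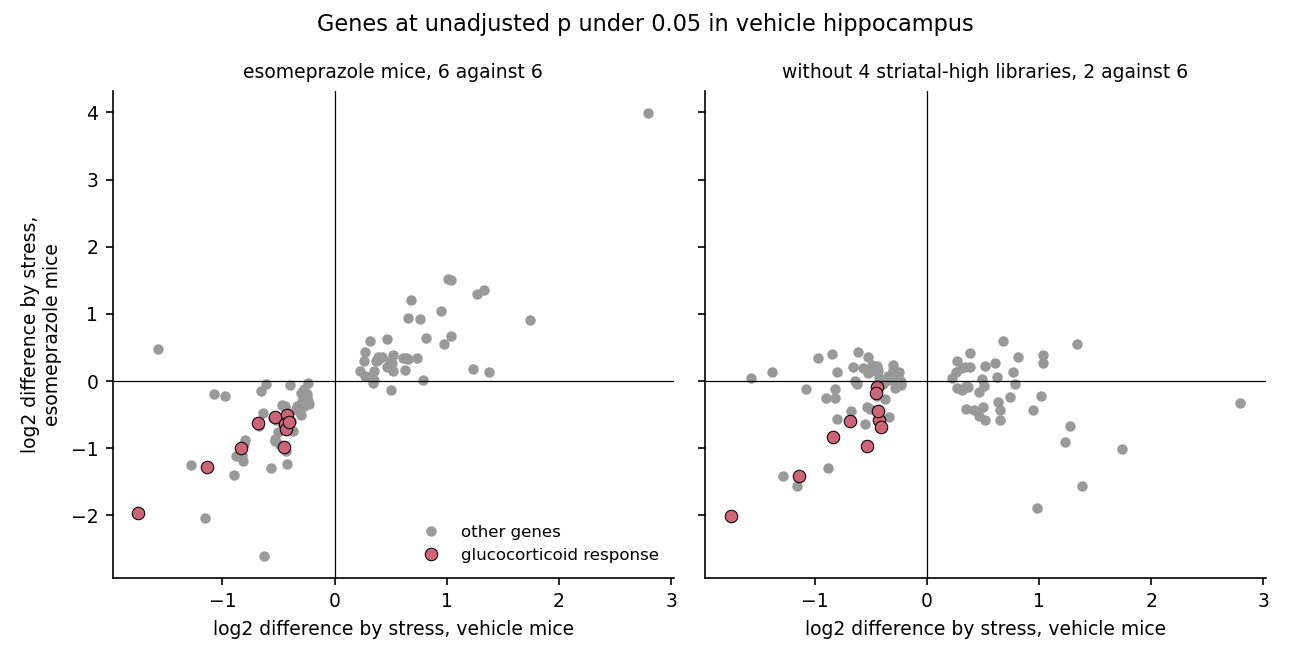
Log2 difference by stress in vehicle mice (horizontal axis) and in esomeprazole mice (vertical axis) of the genes at an unadjusted p under 0.05 in vehicle hippocampus, with all esomeprazole libraries (left) and without the 4 of high striatal score (right); red points are glucocorticoid response genes. On the left 60 of 61 lower and 39 of 41 higher genes keep their direction, on the right 36 of 62 and 17 of 41.

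In frontal cortex of vehicle mice, for which the labels do not say whether the animals were the same, 29 of 42 glucocorticoid response genes were lower after stress, where 53.5% of all genes were, and the median was -0.14. At an unadjusted p under 0.05, 5 were lower (2.14% of all genes) and 0 higher (2.99%). The list was chosen with earlier results of these data known, so these counts are not independent evidence. Markers of other cells were higher in the same comparison: 11 of 11 markers of neuroblasts and olfactory bulb, 8 of them at that threshold, with a median of 2.72, 16 of 16 of meningeal fibroblasts, 8 at that threshold, with a median of 0.80, and 8 of 9 of choroid plexus, 6 at that threshold, with a median of 0.68. Their part in the cortex values was not tested. Of the genes lower in hippocampus 38 of 55 with a value were lower in cortex (69.1%), and of the higher ones 25 of 41 were higher (61.0%, against 46.5% of all genes). Plin4 was at -1.56 ± 0.43 (SE), Map3k6 at -0.76, Galnt15 at -0.68, Tsc22d3 at -0.50 and Sgk1 at -0.47. These were the 5 members at an unadjusted p under 0.05 in cortex. Hif3a was at -0.74, Xdh at -0.44, Fkbp5 at -0.29, Sdc4 at -0.16 and Wipf3 at -0.10. Their limma unadjusted p ran from 0.0592 to 0.572, and Per1 was at 0.14. Lyve1, at -0.17, and Cyp51, at -0.15, had smaller or opposite values there, and the difference between tissues was not tested.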

How the data were processed

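Per the labels, polyadenylated RNA went into stranded libraries read as 2 ends of 151 bases. Per the submitters' processing notes, STAR, HTSeq, DESeq2 and mm10 were used, with no version or role given. Deposited values are a signal: read counts divided by 1 factor per library, since 100% of values are within 0.02 of a whole multiple of that factor. Summary entries for reads outside genes were left out of tests. Of 15304 hippocampal genes, 23 had names turned into dates and 1 name was repeated. Whether counting used strand is not given in the sources used here, so overlapping genes may share reads.

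Whole reads were recovered, scaled by TMM (edgeR 4.0.16) and tested in the 12 libraries only, on log2(normalised reads + 1), by limma 3.58.1 with its mean-variance trend. Genes had to pass filterByExpr (minimum count 10). P-values were adjusted by Benjamini-Hochberg over all genes (threshold 0.05). Normalised reads are not corrected for gene length and compare libraries, not genes. Scores over the 12 libraries (40 lists), and over 24 for the striatal threshold of 0.5, are mean log2 deviations. Named genes were the 10 of smallest p in each direction averaging at least 1 CPM, up to 8 glucocorticoid response genes and 3 of each other list by smallest p, and a fixed set of genes; the text describes those that carry a comparison, and 1 is not reported here. Members, lists and tests were chosen with earlier results of these data known. The mouse numbers were not used as pairs: libraries with the same number correlated from -0.61 to 0.89. Leaving out libraries of low no-feature share (under 12%), also with stressed library 2, and both covariates together were chosen after seeing the data, as was leaving out the 4 striatal-high esomeprazole libraries. Gene positions are from GENCODE vM21. R 4.3.3, DESeq2 1.42.0, Python 3.11.15, numpy 2.4.6, pandas 2.3.3, scipy 1.17.1 and matplotlib 3.10.9 were used.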

Additional observations from a re-analysis of the deposited data

Results flagged for a closer look

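Sets of values within a group of 6 (genes, list scores and library measures) were searched for a library apart from the rest. In 22 of 130 sets its gap to its nearest neighbour exceeded Dixon's 95% critical value. That value flags about 5% of independent, normally distributed sets. The sets here come from the same 12 libraries and are not independent, so the count cannot be set against that rate. Non-stressed library 3, of low no-feature share, was the one apart in 9 of the 10 non-stressed sets. It was high for the striatal score (0.28), Per1 (4974 normalised reads), Atp2c2 (275), Drd2 (175), Dbp (2129.9), Slc2a1 (9201) and Ttr (154787). It was low for Nr3c2 (1400.0) and Atp6ap1l (22.5). The remaining one was Tspan18 in non-stressed library 1, at 1964.

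Among stressed libraries, library 2 was apart for the striatal score (2.69), the CA1 score (-0.78), Sh3rf2 (243 normalised reads), Drd1 (1232), Drd2 (849.5) and Six3 (687). Library 3, of low no-feature share, was apart for Per1 (5314), Fos (1206), Fibcd1 (12830.5), Pou3f1 (1947) and Slc2a1 (6581). Library 5 was apart for Igfn1 (645).

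Tspan18 lay in opposite directions in both tissues. Every stressed library was below the non-stressed mean in hippocampus (log2 difference -0.57) and above it in frontal cortex (1.31). In that cortex comparison 11 of 11 markers of neuroblasts and olfactory bulb were also higher, with a median of 2.72. Their part in the Tspan18 value and the difference between tissues were not tested.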

How the results depend on the processing

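No gene was called under any alternative except library weights, with 122 genes. Genes at an unadjusted p under 0.05 numbered 103 with limma, and 219 with DESeq2, 834 with the no-feature share as covariate, 188 with the striatal score, 963 with both, 2658 with library weights, 475 without the 3 libraries of low no-feature share and 1806 without those 3 and stressed library 2. With the replicate block they numbered 437, although the numbers did not pair the libraries. Leaving out 1 library gave 59 (without non-stressed library 5) to 404 (without stressed library 3). Glucocorticoid response genes lower at that threshold numbered 10, and 16 with the replicate block, 17 with the no-feature share, 24 with library weights, 16 without the 3 libraries and 24 without all 4, with 4 (without non-stressed library 5) to 18 (without stressed library 3) when 1 library was left out. They were 5 without non-stressed library 2 and 6 without non-stressed library 3 or stressed library 1. Their median was below 0 in all 26 alternatives, -0.17 with both covariates, from -0.45 to -0.24 with 1 library left out, and 32 to 36 of 42 were lower then.

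Of 53 genes described, 16 passed adjustment with library weights, against 0.817% of all genes. Many of the 53 were named for a small p in these same libraries, so a higher share among them was built in. The 6 described genes that follow changed sign in some alternative. Nr3c2 was at 0.044 with edgeR, 0.042 with DESeq2, 0.38 with the striatal score, 0.19 with weights, 0.18 without all 4 libraries, 0.20 with both covariates and -0.27 to 0.22 with 1 library left out. Nr3c1 was at -0.032 to 0.69 with 1 library left out (-0.032 without non-stressed library 3). Hsd11b1 was at 0.072 with weights, 0.041 without all 4, 0.12 with both covariates and -0.18 to 0.014 with 1 library left out (0.014 without stressed library 2). Drd1 was at -0.17 with both covariates and Drd2 at -0.074 with the striatal score. Ttr was at 2.18 with weights, 0.31 without the 3 libraries, 1.33 without all 4 and 0.30 with both covariates. The cause was not tested. Median-of-ratios or the deposited scaling, no filter, a pseudocount of 5, edgeR and a fit of all 24 hippocampal libraries gave 82 to 141 genes at that threshold. Depth limits genes of few reads, such as Sh3rf2 and Lao1.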

Other observations

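Lists of other pathways and cell types held few genes at an unadjusted p under 0.05. Choroid plexus markers were lower in 8 of 12 cases, with a median of -0.21, but the median was 0.22 without stressed library 2 and 1.22 without that library and the 3 of low no-feature share. Ttr, the thyroid hormone carrier of choroid plexus, ran from 1562 to 154787 normalised reads without stress and from 811 to 100282 with it. Markers of thalamus and habenula, which border the hippocampus, had a median of -0.12, and -0.66 without those 4 libraries. Chrnb4, a nicotinic receptor subunit gene of the habenula, had 12.6, 34.5 and 148 normalised reads (lowest, median and highest) without stress and 2.83, 14.5 and 28.6 with it, at -1.57 ± 0.70 (SE, limma unadjusted p = 0.0439). Gpr151, an orphan receptor gene of the habenula, exceeded all stressed libraries in non-stressed libraries 2, 3 and 4, at 244, 59.9 and 374.

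Of 14 oligodendrocyte markers 13 were higher, with a median of 0.20 and 0 at an unadjusted p under 0.05 (limma). Without the 3 libraries of low no-feature share 4 of 14 were lower and the median was 0.093. Leaving out stressed library 2 as well, 1 of 14 was lower and the median was 0.17. In esomeprazole mice 7 of 14 were lower after stress, with a median of -0.021. The clock output gene Dbp was at -0.58 ± 0.37 (SE, limma unadjusted p = 0.144) and the clock repressor gene Ciart at -0.35 ± 0.25 (SE, limma unadjusted p = 0.191), in a clock list whose median was -0.07. Slc2a1, the glucose transporter of brain endothelium, was at -0.50 ± 0.28 (SE, limma unadjusted p = 0.0946) and Kdr, which encodes a VEGF receptor, at 0.27 ± 0.18 (SE, limma unadjusted p = 0.152), while the endothelial median was -0.004. Of 14 GABA receptor subunit genes 11 were higher, with a median of 0.20 (-0.097 without the 3 libraries of low no-feature share). The 1 at an unadjusted p under 0.05 (7.14%, against 0.415% of all genes) was lower. It was the GABA-B subunit gene Gabbr2, at -0.27 ± 0.11 (SE, limma unadjusted p = 0.0337). Of 11 serotonin receptor genes 7 were higher, with a median of 0.066. The 1 at that threshold (9.09%, against 0.415% of all genes) was Htr5b, which was lower.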
